A study of Mus musculus with 6 samples.

Results

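CXCR2, CXCR4 and 3 related chemokine receptors, CXCR1, CCR1 and CCRL2, were described at the transcript level in circulating neutrophils of mice with 4T1 tumours. They were chosen by name (Cxcr1, Cxcr2, Cxcr4, Ccr1 and Ccrl2), and all 5 were found among the 35853 genes of the deposited tables and passed the filter on low counts. The 6 libraries came from wild-type BALB/C mice carrying orthotopic tumours of the mouse mammary carcinoma line 4T1, bled 4 weeks after implantation. Cells carrying Ly6G, a surface protein of mouse neutrophils, were sorted by surface Ly6C, and 3 Ly6C-high libraries were set against 3 Ly6C-low ones, both groups sharing strain, genotype, tumour, tissue and time. Whether replicates were separate mice, or pools of them, is not stated in the labels, so each p-value reflects variation among libraries that could be technical. Estimated counts summed to between 17192372 and 20973623 per library. Transcripts that define neutrophils were abundant throughout: S100a8 lay between 141905 and 150851 TPM (an abundance scaled by transcript length and library total) in the Ly6C-high libraries and between 136324 and 148074 TPM in the Ly6C-low libraries. The 8 neutrophil markers, Cxcr2 among them, summed to between 365275 and 370532 TPM in Ly6C-high and between 337003 and 353389 TPM in Ly6C-low libraries, and Ly6g itself was at 1091, 1282 and 1049 TPM in the Ly6C-high libraries and 932, 1014 and 633 TPM in the Ly6C-low libraries, both without overlap. Ly6C-low replicate 3 stood apart, at 24.2 on the first principal component where the other libraries lay between -10.5 and 1.64.

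CXCR2 and CXCR4 are G protein-coupled receptors with opposed roles in neutrophil traffic. CXCR2 answers to the chemokines CXCL1, CXCL2 and CXCL5 and draws neutrophils out of the bone marrow and into inflamed tissue, while CXCR4 answers to CXCL12, which holds them in the marrow and brings ageing neutrophils back to it. CXCR1 is the close relative of CXCR2, CCR1 answers to inflammatory CC chemokines such as CCL3, and CCRL2 is an atypical receptor that binds chemerin without G protein signalling and can pair with CXCR2 in mouse neutrophils.

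Since the readout was a division of reads among transcripts, the sequences that separate or join these receptors are shown first. Cxcr4, on chromosome 1, has 2 annotated transcripts that start with the same coding bases and differ in the end of the first exon, so that Cxcr4-201 carries 6 coding bases which Cxcr4-202 lacks. They are in capitals here, in the sequences of the GENCODE M21 transcripts, 5′ to 3′ from the start codon.
Cxcr4-201: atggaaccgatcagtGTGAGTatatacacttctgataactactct
Cxcr4-202: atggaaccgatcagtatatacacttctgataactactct
Cxcr2 and Cxcr1 are neighbours on chromosome 1, on opposite strands, and the coding sequences of Cxcr2-202 and Cxcr1-201 were 69.5% identical in a global alignment. Their longest identical coding run was 14 bases, in capitals with 20 bases on either side.
Cxcr2-202: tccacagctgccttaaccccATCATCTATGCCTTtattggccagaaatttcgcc
Cxcr1-201: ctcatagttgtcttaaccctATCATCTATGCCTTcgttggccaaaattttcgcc
Ccr1, on chromosome 9, has a neighbouring paralog, Ccr1l1, whose coding sequence was 76.0% identical and shared a run of 31 bases with it, shown in the same way.
Ccr1-201: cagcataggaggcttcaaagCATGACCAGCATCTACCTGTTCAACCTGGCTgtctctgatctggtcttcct
Ccr1l1-201: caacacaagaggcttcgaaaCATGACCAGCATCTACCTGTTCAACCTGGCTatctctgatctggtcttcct
Words of 31 bases, a length at which transcripts are commonly matched to reads, were then compared with all other genes. Cxcr1 shared 0 of its 1459 words, Cxcr4 shared 2 of 1805, Ccrl2 shared 6 of 2595, and Ccr1 shared 18 of 2803, of which 17 were shared with Ccr3 and 1 with Ccr1l1. Cxcr2 shared 368 of 3039 words (12.1%) with other genes. In Cxcr2-202 all 368 of these lay after the coding sequence, and 0 were shared with Cxcr1.

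Cxcr2 was by far the most abundant of the 5 receptors. It measured 1676, 1636 and 1632 TPM in Ly6C-high replicates 1, 2 and 3, and 1712, 1611 and 1455 TPM in Ly6C-low replicates 1, 2 and 3. The groups overlapped, and Cxcr2 ranked between 52 and 58 among all genes by TPM across the libraries. Ccr1 was next, at 515, 557 and 608 TPM in the Ly6C-high libraries and 514, 573 and 602 TPM in the Ly6C-low libraries, again with overlap. Cxcr4 followed, at 201, 210 and 160 TPM in the Ly6C-high libraries and 270, 335 and 232 TPM in the Ly6C-low libraries. All 3 Ly6C-low libraries lay above all 3 Ly6C-high libraries on this scale. Ccrl2 measured 61.4, 62.9 and 68.7 TPM in the Ly6C-high libraries and 75.1, 71.5 and 151 TPM in the Ly6C-low libraries. Its groups did not overlap either, and the value of 151 TPM was that of Ly6C-low replicate 3, the library that stood apart. Cxcr1 was at 65.5, 59.3 and 72.8 TPM in the Ly6C-high libraries and 76.3, 74.7 and 47.8 TPM in the Ly6C-low libraries, with its lowest value in the same library. The order Cxcr2, Ccr1, Cxcr4 and then Cxcr1 and Ccrl2 held in 6 of 6 libraries. The last 2 did not differ beyond their spread, with Cxcr1 above Ccrl2 in 4 libraries and below it in 2.

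**Figure D1:**
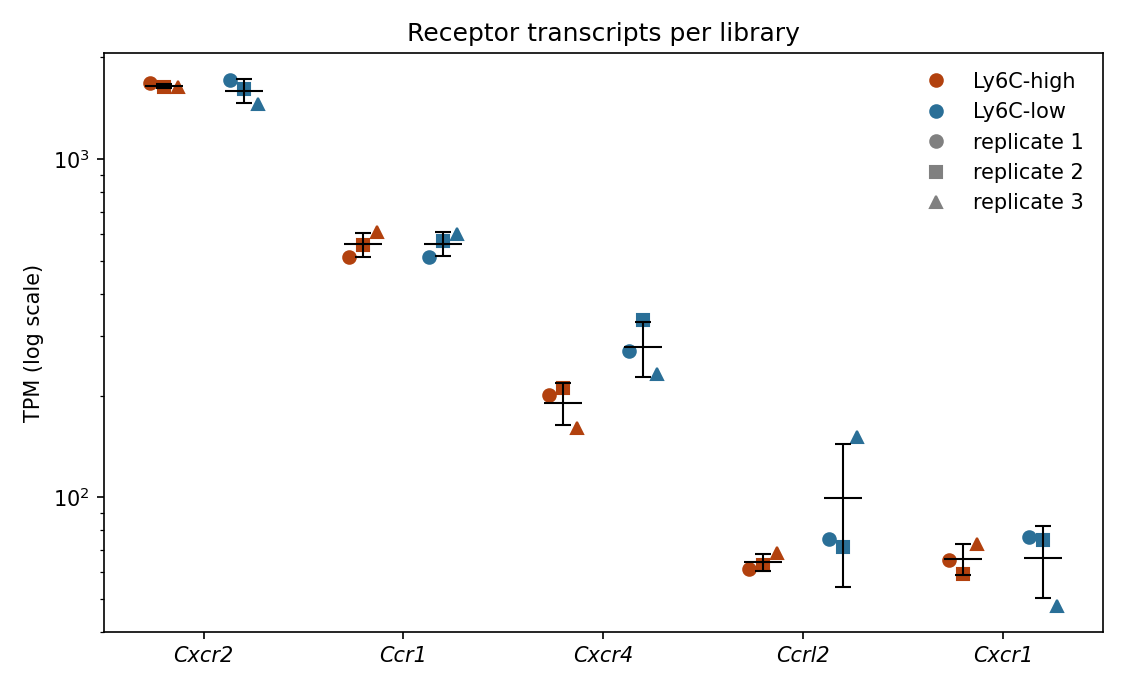
Levels of the 5 receptors in TPM on a log axis, with Ly6C-high left of Ly6C-low. Each point is a library, with the marker's shape giving its replicate, and bars give the mean and SD of 3. Cxcr2 lies between 1455 and 1712 TPM in all libraries, and Cxcr4 is between 160 and 210 TPM in Ly6C-high and between 232 and 335 TPM in Ly6C-low libraries.

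TPM are not scaled for differences in composition between libraries, and the share of genes whose groups did not overlap in TPM was uneven: of 11406 genes tested, 4.36% had the Ly6C-high libraries on top and 18.1% had them below. The 2 of 5 receptors without overlap, both lower, stand against 22.4% of all tested genes in either direction. On CPM, counts scaled by library total and TMM factors that correct for composition, 0 of the 5 receptors had groups without overlap, against 21.1% of all genes tested (10.3% with the Ly6C-high values above and 10.9% with them below). Taken as shares of the summed TPM of the 5 receptors, which do not depend on that scaling, Cxcr4 made up 7.54% ± 1.08 in Ly6C-high and 10.7% ± 1.67 in Ly6C-low libraries, and Cxcr2 65.2% ± 1.21 and 61.2% ± 3.16 in the same order (SD, n = 3 each). The sum itself was between 2518 and 2541 TPM in the Ly6C-high libraries and between 2487 and 2665 TPM in the Ly6C-low libraries.

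The ratio of Cxcr2 to Cxcr4 within a library weighs the receptor of release against the receptor of retention and is free of scaling between libraries. In TPM it was 8.34, 7.78 and 10.2 in Ly6C-high replicates 1, 2 and 3, and 6.34, 4.82 and 6.28 in Ly6C-low replicates 1, 2 and 3. Every Ly6C-high library lay above every Ly6C-low library. The mean ratio was 8.77 ± 1.26 in Ly6C-high and 5.81 ± 0.862 in Ly6C-low libraries (SD, n = 3 each), and the log2 ratio differed by 0.59, a ratio 1.51-fold higher in the Ly6C-high cells. The two-sided exact permutation p was 0.1, the smallest that 3 libraries against 3 allow, so the design could not reach 0.05. Without Ly6C-low replicate 3 the log2 difference was 0.66. The groups also kept apart when the ratio was formed from estimated counts (16.9, 15.7 and 21.5 in the Ly6C-high libraries and at most 13.3 in the Ly6C-low libraries) and from the most abundant transcript of each gene (between 9.56 and 13.5 in Ly6C-high and between 6.21 and 8.29 in Ly6C-low libraries). In bulk RNA, fewer Cxcr4-positive cells and less Cxcr4 RNA per cell cannot be told apart.

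**Figure D2:**
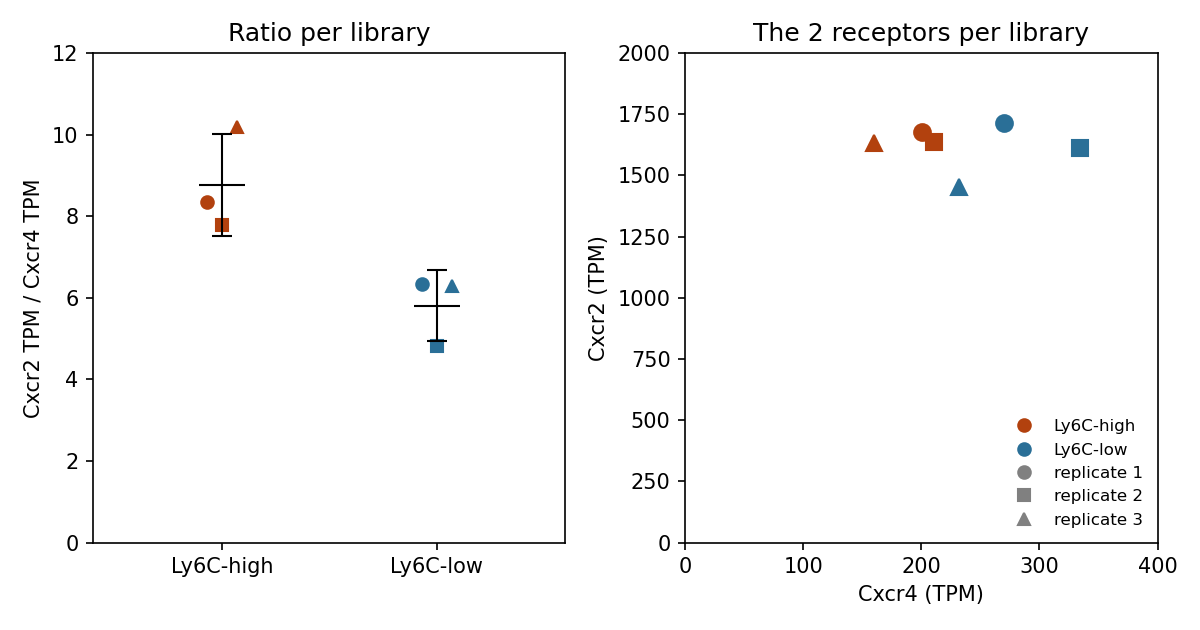
Left, Cxcr2 TPM divided by Cxcr4 TPM in each library, with the mean and SD of 3 libraries a group. Right, Cxcr2 against Cxcr4 in TPM, 1 point a library. The Ly6C-high ratios lie between 7.78 and 10.2 and the Ly6C-low ratios between 4.82 and 6.34, and on the right the Ly6C-high and Ly6C-low libraries part along the Cxcr4 axis.

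The same division was made for all 10 pairs of the 5 receptors, as a description with no test. The groups did not overlap in 3 of them: Cxcr2 to Cxcr4, Cxcr2 to Ccrl2 (between 23.8 and 27.3 in Ly6C-high and between 9.63 and 22.8 in Ly6C-low libraries) and Ccr1 to Ccrl2 (between 8.40 and 8.85 in Ly6C-high and between 3.98 and 8.02 in Ly6C-low libraries). Cxcr2 to Ccr1 overlapped widely, between 2.69 and 3.25 in Ly6C-high and between 2.42 and 3.33 in Ly6C-low libraries. Of the 4 pairs that hold Cxcr4, only that with Cxcr2 was without overlap. Cxcr1 to Cxcr4 missed it narrowly, at 0.282 to 0.454 in Ly6C-high and 0.207 to 0.283 in Ly6C-low libraries, and Cxcr4 to Ccr1 lay between 0.264 and 0.390 in Ly6C-high and between 0.385 and 0.584 in Ly6C-low libraries.

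Tested gene by gene with edgeR's quasi-likelihood test and Benjamini-Hochberg adjustment over 11406 genes, 0 of the 5 receptors differed between the groups at an adjusted p of 0.05, where 0.0351% of all genes did (0.0175% with Ly6C-high above and 0.0175% with it below). DESeq2 called 0 of the 5 against 1.1% of all genes, and limma voom 0 of the 5 against 0.0263%. At an unadjusted p under 0.05 there was 1 of the 5, Cxcr4, which was lower, against 14.3% of all genes (6.92% higher and 7.34% lower). The median log2 fold change of the 5 was 0.08, against -0.00 for all genes tested.

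Cxcr4 had a normalised count of 273, 280 and 204 CPM in Ly6C-high replicates 1, 2 and 3, and 334, 411 and 275 CPM in Ly6C-low replicates 1, 2 and 3. The lowest Ly6C-low value, in replicate 3, lay between the Ly6C-high values. Its log2 fold change, Ly6C-high over Ly6C-low, came to -0.43 ± 0.17 (SE, 95% interval -0.80 to -0.06) and did not pass the edgeR test (p 0.0288, adjusted p 0.304). Leaving out Ly6C-high replicate 3 gave -0.29, leaving out Ly6C-low replicate 2 gave -0.27 and leaving out Ly6C-low replicate 3 gave -0.56, with an adjusted p between 0.243 and 0.571 over the 6 fits that left out 1 library.

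Cxcr2 had 4630, 4416 and 4391 CPM in the Ly6C-high libraries and 4426, 4107 and 3602 CPM in the Ly6C-low libraries, in the order of their replicates. Only Ly6C-low replicates 2 and 3 lay under all Ly6C-high libraries. The log2 fold change came to 0.15 ± 0.11 (SE, edgeR adjusted p 0.582), and its 95% interval from -0.10 to 0.39 runs from 0.936-fold to 1.31-fold. Without Ly6C-low replicate 3 the value was 0.07 (edgeR adjusted p 0.769).

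Ccr1 was at 1325, 1404 and 1526 CPM in the Ly6C-high libraries and 1242, 1364 and 1391 CPM in the Ly6C-low libraries. The groups overlapped. The log2 fold change came to 0.09 ± 0.10 (SE, 95% interval -0.13 to 0.31, edgeR adjusted p 0.730), and it turned to -0.018 when libraries were scaled by size alone, a setting that moved the median of all genes to -0.11. Cxcr1 was at 57.4, 51.2 and 62.2 CPM in the Ly6C-high libraries and 63.2, 60.8 and 38.0 CPM in the Ly6C-low libraries. Ly6C-low replicate 3 was the lowest of the 6, and the other Ly6C-low libraries lay just inside or above the Ly6C-high range. The log2 fold change of 0.08 ± 0.18 (SE, edgeR adjusted p 0.881) changed sign in other settings, to -0.12 without Ly6C-low replicate 3 and -0.018 with scaling by size alone. The 95% interval of Cxcr1, from -0.34 to 0.49, was wider than that of its more abundant relative Cxcr2.

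Ccrl2 had the largest log2 fold change of the 5 by size, and it rested on 1 library. It measured 85.5, 74.4 and 86.7 CPM in the Ly6C-high libraries and 91.9, 85.1 and 171 CPM in the Ly6C-low libraries. Ly6C-low replicate 3 held the highest value, and Ly6C-low replicate 2 lay within the Ly6C-high range. The log2 fold change came to -0.50 ± 0.29 (SE, 95% interval -1.20 to 0.21, edgeR adjusted p 0.497). Without Ly6C-low replicate 3 it was -0.10 (edgeR adjusted p 0.724).

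**Figure D3:**
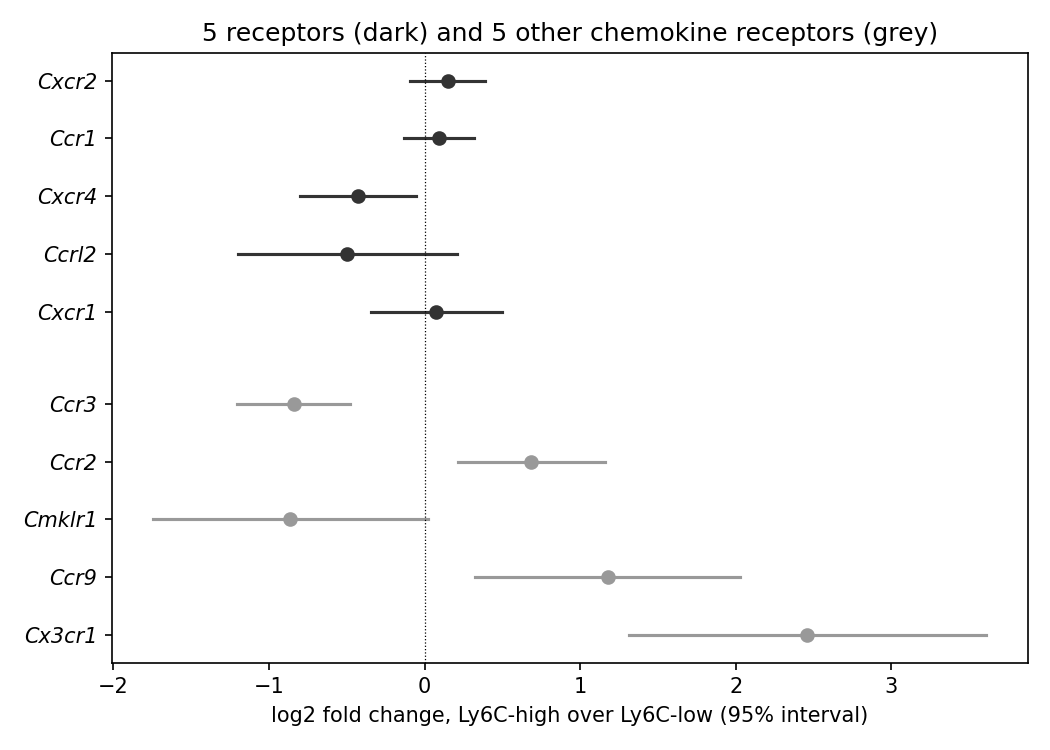
Log2 fold changes, Ly6C-high over Ly6C-low, with 95% intervals from the edgeR fit, for the 5 receptors (dark) and 5 of the 8 other chemokine receptors that passed the filter on low counts, Ccr3, Ccr2, Cmklr1, Ccr9 and Cx3cr1 (grey). Of the 5, Cxcr4 alone has an interval that leaves out 0, from -0.80 to -0.06, and 0 of the genes shown passed an adjusted p of 0.05.

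The annotated transcripts of each receptor were then compared. Cxcr4-202, the form without the 6 capital bases above, held 21.3%, 21.5% and 27.4% of the Cxcr4 TPM in Ly6C-high replicates 1, 2 and 3, and 26.5%, 25.1% and 26.1% in Ly6C-low replicates 1, 2 and 3. The groups overlapped, with the highest share in Ly6C-high replicate 3, the library with the least Cxcr4. The level of Cxcr4-201 was 147 ± 26.4 TPM in Ly6C-high and 207 ± 40.3 TPM in Ly6C-low libraries, and that of Cxcr4-202 was 43.9 ± 1.26 TPM and 72.1 ± 11.8 TPM in the same order (SD, n = 3 each). The annotated Cxcr4-202 is also shorter at its 3′ end (902 against 1805 bases), so the division between the 2 forms is an estimate. Of Cxcr2, Cxcr2-202 held between 96.5% and 97.4% of the TPM in Ly6C-high and between 96.2% and 96.7% in Ly6C-low libraries. Ccr1 has 1 transcript in the annotation, and Cxcr1-201 held at least 98.5% of Cxcr1 in each library. Of the 3 Ccrl2 transcripts, Ccrl2-203 held 49.4% ± 3.13 in Ly6C-high and 52.0% ± 3.72 in Ly6C-low libraries (SD, n = 3 each). In Ly6C-low replicate 3 all 3 Ccrl2 transcripts were at their highest, at 24.2 TPM for Ccrl2-201, 52.7 TPM for Ccrl2-202 and 74.2 TPM for Ccrl2-203.

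**Figure D4:**
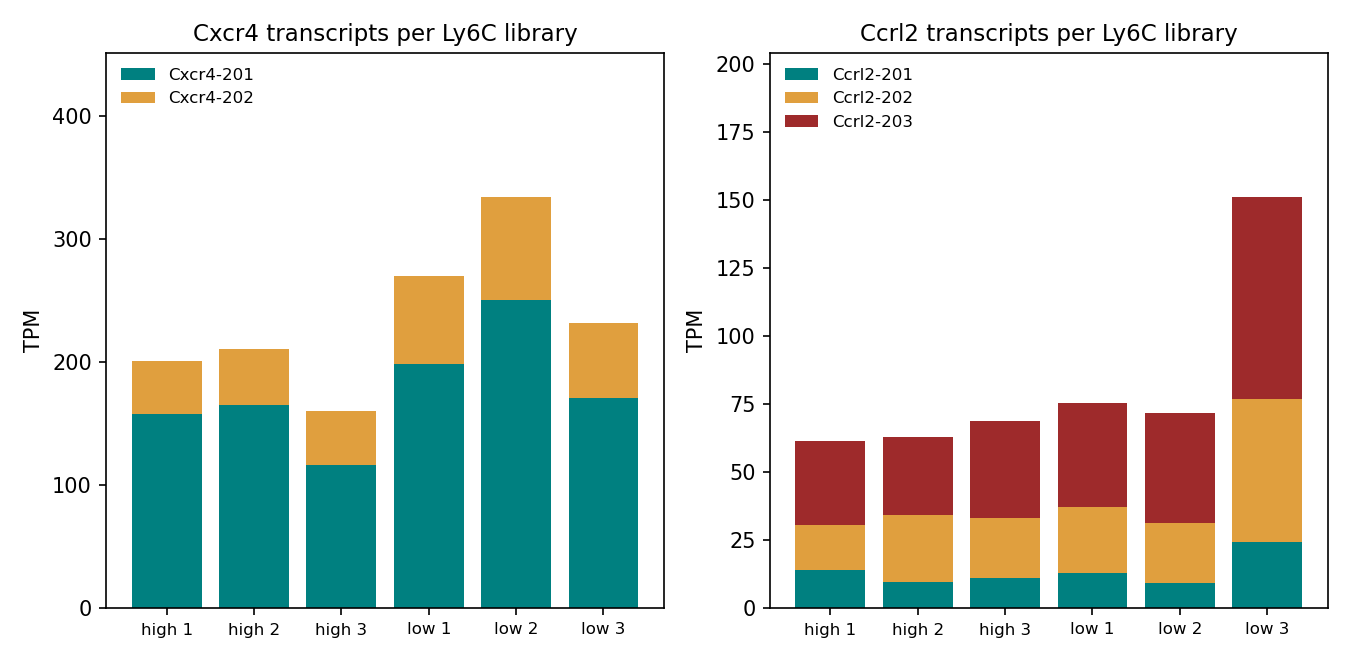
TPM of each annotated transcript of Cxcr4 (left) and Ccrl2 (right), stacked, 1 bar a library, with the Ly6C-high libraries left of the Ly6C-low libraries. The Cxcr4 bars are highest in the Ly6C-low libraries with Cxcr4-202 between 21.3% and 27.4% of each bar, and the Ccrl2 bar of Ly6C-low replicate 3 reaches 151 TPM with all 3 transcripts at their highest there.

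The other chemokine receptors were scarce beside these 5. Of 21 looked up, 8 passed the filter on low counts, and the 21 together summed to between 19.5 and 28.7 TPM in the Ly6C-high and between 24.1 and 32.1 TPM in the Ly6C-low libraries. Their median log2 fold change was 0.04. With edgeR 0 of the 8 passed the adjusted threshold, against 0.0351% of all genes. At an unadjusted p under 0.05, 3 were higher and 1 was lower, against 6.92% and 7.34% of all genes. Voom called 0, against 0.0263% of all genes, and DESeq2 called 1, against 1.1%. That gene was Ccr3, the eotaxin receptor of eosinophils, at 7.18 ± 1.55 CPM in Ly6C-high and 12.9 ± 0.722 CPM in Ly6C-low libraries (SD, n = 3 each), with a log2 fold change of -0.84 (edgeR adjusted p 0.142, DESeq2 adjusted p 0.00585). Ccr2, the receptor that brings monocytes out of the marrow, was at 11.2 ± 0.769 CPM in Ly6C-high and 6.96 ± 2.22 CPM in Ly6C-low libraries (log2 fold change 0.68, edgeR adjusted p 0.228). Cx3cr1, the fractalkine receptor, rested on 13, 25 and 13 counts in the Ly6C-high and 3, 3 and 3 counts in the Ly6C-low libraries (edgeR adjusted p 0.153). Ccr9, a gut-homing receptor, rested on 15, 17 and 23 counts in the Ly6C-high and 7, 9 and 8 counts in the Ly6C-low libraries (edgeR adjusted p 0.235). Cmklr1, the signalling receptor for the chemerin that CCRL2 binds, was at 1.11, 0.747 and 0.734 CPM in Ly6C-high replicates 1, 2 and 3, and 1.40, 0.891 and 2.44 CPM in Ly6C-low replicates 1, 2 and 3 (log2 fold change -0.86, edgeR adjusted p 0.358), with overlap and its highest value in the library that stood apart. Ccr1l1, the paralog shown beside Ccr1, had at most 3 counts in any library.

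Among transcripts of the ligands, Ccl6 and Cxcl2 were the most abundant by CPM. Of 16 ligand genes 9 were tested, and 0 passed with edgeR, DESeq2 or voom, with 2 at an unadjusted p under 0.05, against 14.3% of all genes, and a median log2 fold change of -0.27, against -0.00 over all genes. Cxcl12, the ligand of CXCR4, had 0 counts in all 6 libraries, as had Ccl7 and Ccl8. Mif, a cytokine that binds CXCR2 and CXCR4, was at 15.4, 16.6 and 13.6 CPM in Ly6C-high replicates 1, 2 and 3, and 24.8, 25.9 and 17.7 CPM in Ly6C-low replicates 1, 2 and 3. The groups did not overlap, and the log2 fold change came to -0.58 ± 0.15 (SE, edgeR adjusted p 0.192). Mif has processed pseudogenes, so its count is uncertain. Ccl3, a ligand of CCR1, was at 1.63 ± 0.0699 CPM in Ly6C-high and 3.48 ± 2.07 CPM in Ly6C-low libraries (log2 fold change -1.09, edgeR adjusted p 0.264), with its highest value, 5.83 CPM, in Ly6C-low replicate 3. Cxcl2, a ligand of CXCR2, varied within both groups, at 80.1, 86.5 and 140 CPM in the Ly6C-high libraries and 73.6, 50.9 and 166 CPM in the Ly6C-low libraries. Ccl9 was at 13.7 ± 0.727 CPM in Ly6C-high and 16.4 ± 4.45 CPM in Ly6C-low libraries.

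Genes that carry the receptor signal through the G protein differed little in size. Of 16 genes 14 had a log2 fold change above 0, where 49.2% of all genes tested did, with a median of 0.11 and a range from -0.07 to 0.24, and 0 passed with edgeR, DESeq2 or voom (1 at an unadjusted p under 0.05, against 14.3% of all genes). That gene was Gnai3, an inhibitory alpha subunit, at 691 ± 33.2 CPM in Ly6C-high and 587 ± 61.1 CPM in Ly6C-low libraries (log2 fold change 0.24, edgeR adjusted p 0.340). The values were 0.16 for Plcb2, a phospholipase C, and 0.18 for Pik3cg, the PI3-kinase gamma catalytic subunit. Gnai2, the most abundant alpha subunit of the list, was at 2329 ± 113 CPM in Ly6C-high and 2092 ± 274 CPM in Ly6C-low libraries. In Ly6C-low replicates 1, 2 and 3 it was at 2329, 2155 and 1792 CPM. The 16 genes summed to between 4756 and 5080 TPM in the Ly6C-high libraries. In Ly6C-low replicates 1, 2 and 3 the sum was 5006, 4862 and 4238 TPM, lowest in the library that stood apart. How far the 14 of 16 rest on that library was not tested.

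Of 16 genes for receptor desensitisation and trafficking, 15 were tested, with a median log2 fold change of 0.05, and 0 passed with edgeR or voom. DESeq2 called 1, against 1.1% of all genes, and 1 had an unadjusted edgeR p under 0.05, against 14.3%. Both were Rgs18, an inhibitor of G protein signalling, at 97.5, 93.7 and 94.9 CPM in the Ly6C-high libraries and 68.8, 82.4 and 62.8 CPM in the Ly6C-low libraries (log2 fold change 0.42, edgeR adjusted p 0.192, DESeq2 adjusted p 0.0370). Grk2, the kinase that marks active chemokine receptors for uptake, was at 641 ± 46.8 CPM in Ly6C-high and 628 ± 26.8 CPM in Ly6C-low libraries, and Arrb2, which encodes the beta-arrestin that binds them, at 448 ± 29.2 and 419 ± 10.8 CPM. Rgs1 was at 0.370, 0.533 and 0.490 CPM in Ly6C-high replicates 1, 2 and 3, and 0.349, 0.524 and 2.28 CPM in Ly6C-low replicates 1, 2 and 3. Its log2 fold change of -1.16 (edgeR adjusted p 0.476) came with a high value in Ly6C-low replicate 3 alone. Rgs19 had a log2 fold change of 0.13.

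Of 8 genes placed upstream of the receptors 7 were tested, with a median log2 fold change of 0.11, and 0 passed with edgeR, DESeq2 or voom (1 at an unadjusted p under 0.05, against 14.3% of all genes: Cebpe, a factor of late granulocyte maturation, at a log2 fold change of 0.31 and an edgeR adjusted p of 0.343). Csf3r, the receptor for G-CSF, which mobilises neutrophils, was at 5171, 5224 and 5472 CPM in Ly6C-high replicates 1, 2 and 3, and 6734, 5772 and 5249 CPM in Ly6C-low replicates 1, 2 and 3 (log2 fold change -0.16, edgeR adjusted p 0.564). Nr3c1, the glucocorticoid receptor, had a log2 fold change of 0.23, and Arntl, a clock factor linked to neutrophil ageing, one of -0.37 at about 2 CPM (edgeR adjusted p 0.532). Gfi1, which represses Cxcr4, did not pass the filter on low counts.

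Markers of other blood cells that carry chemokine receptors moved with the groups in part. The 9 eosinophil markers summed to between 19.2 and 24.0 TPM in Ly6C-high and between 39.4 and 44.1 TPM in Ly6C-low libraries. Of the 6 tested members 5 lay below 0, where 49.2% of all genes were above it. With edgeR 1 passed the adjusted threshold, where 0.0351% of all genes did: Alox15 (log2 fold change -2.89, edgeR adjusted p 0.0132, named after its value was seen). Alox15 was scarce, at 0.397 ± 0.115 CPM in Ly6C-high and 2.98 ± 0.795 CPM in Ly6C-low libraries (SD, n = 3 each). DESeq2 gave it no adjusted p, and voom called 0 of the eosinophil markers. Of the genes that define eosinophils, Epx was at 0 in all 3 Ly6C-high and in 2 Ly6C-low libraries (0.0233 TPM in the other), and Prg2 was at 0 in all 3 Ly6C-high libraries and at 0.268, 1.34 and 0.198 TPM in the Ly6C-low libraries. Ccr3 is itself on that list. Siglecf was the most abundant of the 9 markers in each library. It was at 16.5, 13.7 and 13.6 TPM in Ly6C-high replicates 1, 2 and 3. In Ly6C-low replicates 1, 2 and 3 it was at 23.1, 20.1 and 24.97 TPM. How much of this Siglecf RNA came from eosinophils was not tested. Of the 8 basophil and mast cell markers 6 of 7 tested lay below 0. They summed to between 666 and 880 TPM in Ly6C-high and between 556 and 735 TPM in Ly6C-low libraries, nearly all of it Hdc, which neutrophils also express. The other 7 summed to between 3.21 and 5.41 TPM in Ly6C-high and between 7.47 and 36.3 TPM in Ly6C-low libraries, with the most in replicate 3. The 8 monocyte markers summed to between 106 and 112 TPM in Ly6C-high and between 117 and 135 TPM in Ly6C-low libraries, mostly Csf1r, with 5 of 7 tested members above 0, Ccr2 and Cx3cr1 among them. Without Csf1r the sum was between 10.8 and 13.5 TPM in Ly6C-high and between 6.88 and 11.7 TPM in Ly6C-low libraries, with overlap. At an unadjusted edgeR p under 0.05, 4 of the 7 tested monocyte markers were higher (Cx3cr1, Ms4a6c, Ccr2 and F13a1) and 0 were lower. The shares of all genes were 6.92% and 7.34%. In CPM these 4 were higher without overlap, against 10.3% of all genes, and Csf1r was lower without overlap, against 10.9%. With edgeR 0 of the 7 passed the adjusted threshold, against 0.0351% of all genes. The 12 immature neutrophil markers summed to between 25215 and 31244 TPM in Ly6C-high and between 17768 and 26481 TPM in Ly6C-low libraries, with overlap. The lowest sum was that of Ly6C-low replicate 3, the library that stood apart, with 24189 and 26481 TPM in Ly6C-low replicates 1 and 2. Of the tested members 8 of 11 lay above 0, where 49.2% of all genes were. The 3 below 0 were Mpo (log2 fold change -0.39), Mki67 (-0.31) and Top2a (-0.13). With edgeR 0 of the 11 passed the adjusted threshold, against 0.0351% of all genes. DESeq2 gave no adjusted p for Mpo and Top2a. Of the others it called 1, against 1.1% of all genes: Mmp8 (log2 fold change 0.59, edgeR adjusted p 0.153, DESeq2 adjusted p 0.00122), named after its value was seen. Of the 8 mature neutrophil markers 5 lay above 0 and 3 below. With edgeR 0 of these 8 passed, against 0.0351% of all genes. DESeq2 called 1, Fpr1 (log2 fold change 0.34, edgeR adjusted p 0.194, DESeq2 adjusted p 0.0309), against 1.1%. The part of these cells and states in the Cxcr4, Ccrl2, Ccr2, Cx3cr1 and Ccr3 values was not tested.

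For each receptor the 3 protein-coding genes with the most similar profile were taken from 7077 genes of at least 5 CPM, by Pearson's r of log2 CPM over the 6 libraries. These values describe 6 libraries and were picked as the highest of many. Nearest to Cxcr2 were Prkcb (0.997), which encodes protein kinase C beta, Ift80 (0.996) and Rsph3a (0.996). Nearest to Cxcr4 were Sec11a (0.995), a signal peptidase subunit, Sars (0.988), a seryl-tRNA synthetase, and Zfp524 (0.985). These 3 spanned a much smaller range than Cxcr4, with log2 fold changes of -0.09, -0.14 and -0.14. Nearest to Ccr1 were Vegfa (0.984), an angiogenic growth factor, Irgm1 (0.979) and Gnaq (0.976), and nearest to Cxcr1 were Slc28a2 (0.989), a nucleoside transporter, Epb41l2 (0.981) and Atp6v1b2 (0.980). Nearest to Ccrl2 were Gm5483 (0.997), Stfa2l1 (0.996) and Stfa2 (0.994), the last 2 stefin A protease inhibitor genes. They come from a cluster of near-identical copies, so the division of reads among them is uncertain. Stfa2 measured 970, 819 and 907 CPM in Ly6C-high replicates 1, 2 and 3, and 1049, 907 and 2988 CPM in Ly6C-low replicates 1, 2 and 3, with the same high library as Ccrl2. Over the 5 libraries without Ly6C-low replicate 3, r with Ccrl2 was 0.993 for Gm5483, 0.930 for Stfa2l1 and 0.912 for Stfa2. Over the same 5 libraries r with Cxcr1 was 0.96 for Slc28a2, 0.88 for Epb41l2 and 0.92 for Atp6v1b2. For the genes nearest to Cxcr2, Cxcr4 and Ccr1 it was at least 0.9787.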

How the data were processed

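Each poly(A) library, made with a kit that marks strand, started from 100 ng of RNA, took 13 PCR cycles and was read from single ends over 75 cycles, per the series' design text. The authors deposited kallisto's estimated counts and TPM per transcript, per the file headers, and the build was GRCm39, per the submitters' processing notes. The kallisto version, index and strand setting are, in the sources used here, not given, so reads of antisense genes cannot be told apart. Here, transcripts were assigned to genes with GENCODE M21 (99.0% matched, holding at least 99.7% of the estimated counts). That annotation is on GRCm38, so no coordinates are given. The deposited estimated counts and TPM were summed per gene, and the counts were rounded. The main test was edgeR 4.0.16 under R 4.3.3 (filterByExpr, TMM, robust quasi-likelihood F test, group as the only term, Benjamini-Hochberg over 11406 genes, threshold 0.05). Each fold change divides Ly6C-high by Ly6C-low, and intervals are 95% intervals between libraries. The Cxcr2 to Cxcr4 ratio was tested by exact permutation over 20 splits. DESeq2 1.42.0, limma 3.58.1 voom, other scalings and filters, length-scaled TPM, the replicate block and each library left out in turn were the alternatives. The edgeR step was tested on simulated data. No 2 libraries agreed within sampling noise (chi-square per gene between 14.4 and 69.9), so all 6 were counted. The members and gene lists were chosen with earlier results of these data known. Named were the 5 members, from each of the 5 lists of receptors, ligands, signalling, desensitisation and upstream genes at least the 3 tested genes with the smallest p, further members of any list where shown (some list members are not reported here), and the 3 protein-coding genes most like each member. No molecular identifiers are named in the sources used here, so counts may include PCR copies.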

Additional observations from a re-analysis of the deposited data

How the results depend on the processing

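The Cxcr2 to Cxcr4 ratio was higher in the Ly6C-high cells in every setting run: the log2 difference was 0.57 from estimated counts, 0.55 from the most abundant transcripts, and between 0.47 and 0.68 with 1 library left out, where the exact permutation p was 0.2. Taking the same replicate numbers as pairs, as a replicate block, gave 0.59 with an exact sign-flip p of 0.25, the smallest that 3 pairs allow. The deviations of same-numbered libraries from their group means correlated at 0.323, 0.0548 and 0.277, and each library correlated best with its own number. The labels do not say that the numbers pair the libraries, so the main test had no pairing term. Whether the libraries are paired cannot be told from these values. With the replicate block 61 genes passed over all genes, against 4 without it, and Cxcr4 had a log2 fold change of -0.42 (edgeR adjusted p 0.0609). Genes past the threshold numbered 8 with scaling by size alone, 439 without a filter, 126 with DESeq2, 2 with length-scaled TPM, and between 2 and 22 with 1 library left out (22 without Ly6C-low replicate 3, 2 without Ly6C-high replicate 2 or 3 or Ly6C-low replicate 2). Without a filter Cxcr4 passed, at -0.43 (edgeR adjusted p 0.00726), 1 of the 439 genes that passed among about 20580 tested there. Cxcr4 was the sole receptor of the 5 to pass in any setting, and the cause was not tested. Over the other alternatives on all 6 libraries its value lay between -0.53 and -0.42. With scaling by size alone Cxcr1 and Ccr1 turned to -0.018 and -0.018, as the median of all genes moved to -0.11. With 1 library left out the log2 fold changes ranged from -0.56 to -0.27 for Cxcr4, 0.07 to 0.21 for Cxcr2, 0.04 to 0.14 for Ccr1, -0.12 to 0.20 for Cxcr1 and -0.68 to -0.10 for Ccrl2. The 5 receptors had at least 717 counts in every library, whereas Cx3cr1 and Ccr9 rested on few.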

Other observations

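By TPM, Cxcr5, the receptor that guides B cells and follicular T cells to CXCL13, was the most abundant of the 21 chemokine receptors outside the 5, between 8.89 and 14.6 TPM in the Ly6C-high libraries and between 9.45 and 15.2 TPM in the Ly6C-low libraries. Its log2 fold change was 0.11 (edgeR adjusted p 0.806). The 5 B cell markers, Ighm among them, summed to between 8.19 and 10.8 TPM in Ly6C-high and between 8.22 and 11.8 TPM in Ly6C-low libraries. Ms4a1 averaged 0.446 TPM in Ly6C-high and 0.371 TPM in Ly6C-low libraries. Cd3d was also at 37.0 TPM in Ly6C-high and 30.2 TPM in Ly6C-low libraries on average, while Cd3e was at 0.358 and 0.537 TPM and Cd3g at 0.680 and 0.288 TPM. Cxcr5 and Cd3d were named after their values were seen.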
